A study of Sus scrofa domesticus with 16 samples.

Results

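The insulin-like growth factor (IGF) system of the porcine adrenal gland was followed through 10 genes: the ligands IGF1 and IGF2, the receptors IGF1R and IGF2R, the binding proteins IGFBP2, IGFBP3, IGFBP5, IGFBP6 and IGFBP7, and PAPPA, a protease of binding proteins. They were taken by gene symbol from the annotation of the array. Of 23999 probe sets besides controls, 25 carried one of these symbols. They covered 8 of the 10 genes, among 6765 genes that the annotation names by a single symbol, and IGFBP3 and IGFBP7 were not analysed here. A probe set is a group of short probes whose signals are combined into 1 value. IGF2 had 13 probe sets, IGF1 had 3, and IGF1R, IGFBP6 and PAPPA had 2 each, while IGF2R, IGFBP2 and IGFBP5 had 1 each.

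The adrenal glands came from 16 domestic pigs, with 1 array per animal. Animals that did not know each other had been put together, and 8 labelled high stress, from a mixing treatment of high aggressiveness, were compared with 8 labelled low stress, from a mixing treatment of low aggressiveness. The submitters state that the groups were picked because they differed in aggression and in plasma cortisol, so this is a comparison of selected animals and there was no unmixed control group. Breed, age and sex are not given in the sources used here, and whole-gland RNA cannot tell fewer cells of a type from less RNA per cell.

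IGF1 and IGF2 act mainly through the tyrosine kinase receptor IGF1R, whereas IGF2R takes IGF2 up for breakdown in lysosomes. Most IGF in tissue fluid is held by binding proteins, which keep the ligand from its receptor until they are cleaved. PAPPA (pappalysin) is a secreted metalloprotease that cuts IGFBP4 and IGFBP5 and so releases IGF near the cell. In the adrenal gland IGFs are known to support growth of the cortex and its response to corticotropin, and IGF2 is known for its high level in the fetal gland and in adrenocortical tumours.

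Values are log2 of the deposited signal. Probe sets with a mean below log2 6.15 (signal 71.1), the 40th percentile, were set aside as dim, which left 14399 to test. Of the 25 probe sets 13 passed, for 7 genes; the only one of IGFBP2 did not. A difference is called at a Benjamini-Hochberg adjusted p under 0.05 in limma, adjusted over all 14399. The arrays also fell into 2 sets that the labels do not name, seen in dap, a spiked-in bacterial control RNA. Its log2 signal averaged 8.71 ± 0.20 on the arrays called low-spike here and 11.67 ± 0.19 on those called high-spike (SD, n = 8 each), and each set held 4 animals of each stress group. Of all probe sets tested, 40.1% differed between the sets, so differences between stress groups are also given within the sets and with the set as a block. Cortical genes such as STAR (log2 signal 14.86 ± 0.17 in low stress) and CYP11A1 (14.40 ± 0.18), and the medullary gene PNMT (13.58 ± 0.36; SD, n = 8 each), were bright in the samples, as the labelled tissue would have them. The number of arrays limits the precision.

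Among the 13 member probe sets above the filter, PAPPA had the largest difference between the stress groups, with a lower mean in high stress. That high stress mean lay under the filter value of 6.15 and the low stress mean above it. PAPPA thus passed the filter through its low stress values, and its rank is no support for a difference. Its probe set above the filter ranged in low stress from 6.06 to 7.26 with a median of 6.73, and in high stress from 5.48 to 6.68 with a median of 5.98. In 7 of 8 high stress animals it lay below the low stress mean, but the groups overlapped. High stress replicates 6 (6.68), 1 (6.45) and 5 (6.17) lay within the low stress range, and low stress replicates 8 (6.57), 6 (6.54), 3 (6.08) and 7 (6.06) lay below the highest high stress animal. The means were 6.65 ± 0.42 in low stress and 5.997 ± 0.43 in high stress (SD, n = 8 each). PAPPA was thus 1.57-fold higher in low stress, with a 95% confidence interval of 1.17 to 2.11 (log2 difference -0.65, SE 0.20). It did not pass over all probe sets (limma adjusted p = 0.999; unadjusted p = 0.00464). At an unadjusted p under 0.05, 1 of the 13 probe sets stood out, this one, against 3.19% of all probe sets tested (1.92% counting those lower in high stress). PAPPA was chosen as a member with earlier results of these data known, so this count is a description. At the adjusted threshold 0 of the 13 passed, against 0% of all 14399.

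The difference in PAPPA had the same direction in each set and under each number prefix below. It was -0.56 among low-spike and -0.74 among high-spike arrays. In the latter the 4 high stress animals ranged from 5.48 to 6.17 and the 4 low stress animals from 6.08 to 6.89, so the ranges overlapped. The animal numbers in the labels begin with 3, 4, 5 or 8, with 2 animals of each stress group under each digit, and what the digit stands for is not given. The difference was -0.95, -0.66, -0.47 and -0.53 under the digits 3, 4, 5 and 8. These are parts of the same arrays that gave the difference above, so the shared direction is no separate support. The share of all probe sets with a shared direction in these splits was not worked out. With the set as a block PAPPA had an SE of 0.18 (unadjusted p = 0.00258, limma adjusted p = 0.682), and 1 of 14399 probe sets, not a member, passed that fit (0.00694%). A test of whether the difference itself changed between the sets did not pass (limma interaction -0.18, SE 0.38, adjusted p = 0.9996), and 0 of the 13 and 0% of all probe sets tested passed it.

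What the PAPPA signal represents is less certain than its size. In high stress 5 of 8 animals lay under the filter value of 6.15, and in low stress 2 of 8, so the values are near the dim end of the array. The gene has 2 probe sets. The suffix A1 of the one above the filter and S1 of the other mark opposite orientations in the naming of this kind of array, A for antisense and S for sense. The S1 probe set was dim, at 4.36 ± 0.88 in low stress and 4.18 ± 1.47 in high stress (SD, n = 8 each), and fitted without a filter it had a log2 difference of -0.18 (95% confidence interval -1.40 to 1.04). That interval holds both 0 and the A1 difference. Bright probe sets of the markers CHGB (mean 14.31 in low stress) and AGTR1 (11.57) carry the suffix A1 too, so the suffix alone does not tell the strand. Which strand the A1 signal of PAPPA comes from was not tested.

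**Figure D1:**
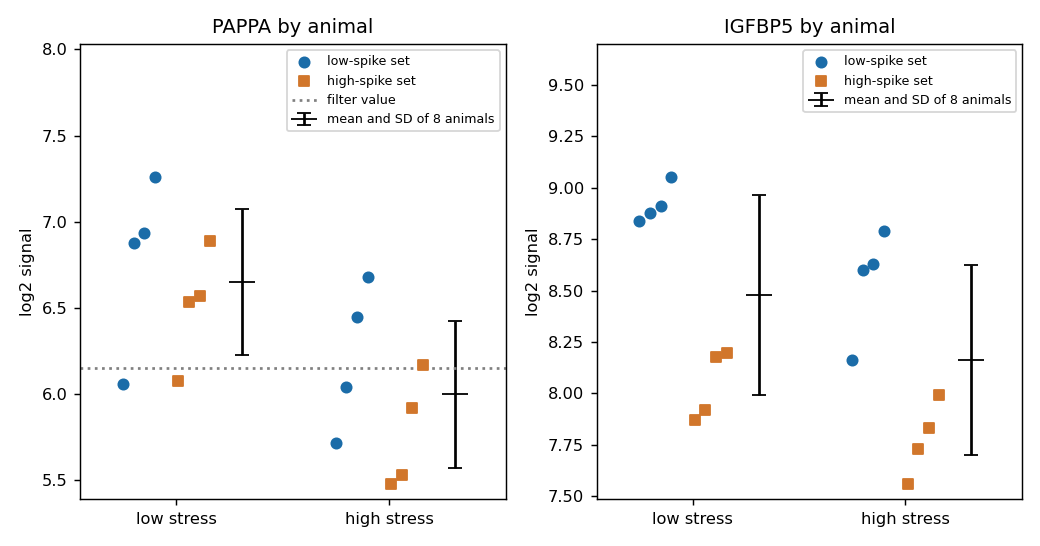
Log2 signal of PAPPA (left, probe set Ssc.15826.1.A1_at) and IGFBP5 (right, Ssc.15800.1.S1_at) in each of 16 animals, by stress group on the x axis; circles are the low-spike and squares the high-spike set, the bar is the mean with the SD of 8 animals, and the dotted line is the filter value (6.15). The PAPPA mean is lower in high stress in both sets, while IGFBP5 separates first by set (8.16 to 9.05 against 7.56 to 8.19) and has a lower high stress mean within each set.

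IGFBP5, a binding protein and substrate of PAPPA, also had lower values in high stress, by a smaller amount. It ranged from 7.87 to 9.05 with a median of 8.52 in low stress, and from 7.56 to 8.79 with a median of 8.08 in high stress, and the groups overlapped. The means were 8.48 ± 0.49 and 8.16 ± 0.46 (SD, n = 8 each), a log2 difference of -0.32 (SE 0.22, 95% confidence interval -0.79 to 0.15). It did not pass (limma adjusted p = 0.999).

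Most of the spread in IGFBP5 lay between the spike-in sets. Low-spike arrays averaged 8.73 ± 0.27 and high-spike arrays 7.91 ± 0.21 (SD, n = 8 each). The high-spike set was lower by a log2 difference of -0.82 (SE 0.10, limma adjusted p = 2.80e-05), a 1.77-fold change. Among low-spike arrays the 4 low stress animals lay at 8.84 to 9.05 and the 4 high stress animals at 8.16 to 8.79, without overlap. Among high-spike arrays they lay at 7.87 to 8.19 and at 7.56 to 7.99, where high stress replicate 2 (7.99) stood above low stress replicates 1 (7.92) and 8 (7.87). The stress difference was -0.37 and -0.26 in these sets. In the low-spike set 1 of the 13 probe sets had every high stress animal below every low stress animal, against 2.72% of all tested; in the high-spike set it was 0 of 13, against 1.08%.

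With the set as a block the SE of the IGFBP5 difference was 0.10 in place of 0.22, and its 95% confidence interval ran from -0.53 to -0.11. The unadjusted p was then 0.00511 and the limma adjusted p 0.682, so the difference did not pass. In this fit, at an unadjusted p under 0.05, PAPPA and IGFBP5 made 2 of the 13, against 6.38% of all probe sets tested. Of these 919 probe sets 578 were lower in high stress (4.01% of all tested), as were the 2 members. PAPPA and IGFBP5 were chosen with earlier results of these data known, so this count and those above cannot show an excess. By first digit of the animal number (3, 4, 5 and 8) the IGFBP5 difference was -0.01, -0.30, -0.52 and -0.44. IGFBP5 and IGFBP2 are adjacent entries in the order of RefSeq genes on the pig genome (assembly Sscrofa11.1, used here for names and neighbours).

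PAPPA and IGFBP5, protease and substrate, were compared across animals within each set. In the low-spike set Pearson's r was 0.603 (exact permutation p = 0.102; Spearman's rho 0.714, exact permutation p = 0.0576; n = 8). In the high-spike set r was 0.190 (exact permutation p = 0.645; rho 0.095, exact permutation p = 0.840; n = 8). The permutation p values of r were 0.205 and 0.645 after adjustment over both sets, two-sided. Without the 2 animals farthest from the median of PAPPA, r was 0.478 and 0.384. Neither relation passed. These values still hold the difference between the stress groups: with each animal centred on its stress group within its set, r over all 16 arrays was -0.06.

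Of the other binding proteins, IGFBP6, which prefers IGF2 as its ligand, was measured by 2 probe sets, and neither passed (limma adjusted p = 0.999 each). The first, Ssc.14062.1.S1_at, ranged from 9.32 to 10.50 (median 9.80) in low stress and from 9.51 to 10.49 (median 10.01) in high stress, a log2 difference of 0.13 (SE 0.17). The second, Ssc.14062.2.S1_a_at, ranged from 10.11 to 10.91 (median 10.47) and from 10.28 to 11.03 (median 10.57), a log2 difference of 0.10 (SE 0.13). The groups overlapped almost completely, and the 95% confidence intervals were -0.23 to 0.48 and -0.18 to 0.39. Both probe sets followed the same animals, with a correlation of 0.933 over 16 arrays after each value was centred on its stress group within its set. Yet they differed in how they stood between the sets: the first was lower in the high-spike set by -0.46 (SE 0.13, limma adjusted p = 0.00887) and the second by -0.12 (SE 0.13, adjusted p = 0.504). The difference between these 2 shifts was not tested.

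IGFBP2, a binding protein found in the circulation, had 1 probe set and lay just under the filter, with a mean of 6.08 over all animals. It ranged from 5.59 to 7.22 (median 6.19) in low stress and from 2.83 to 6.77 (median 6.25) in high stress. The medians were nearly alike, and the lower mean of high stress (5.86 ± 1.27, against 6.30 ± 0.61; SD, n = 8 each) came with 1 animal, replicate 3, at 2.83. Without a filter the log2 difference was -0.43 (SE 0.47, limma adjusted p = 0.999).

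IGF2 was the member with the most probe sets, and they did not share a direction. The 5 above the filter had log2 differences of -0.24 to 0.27, 3 lower and 2 higher in high stress, and each had a limma adjusted p of 0.999. The probe set Ssc.20525.1.S1_at ranged from 7.42 to 8.40 (median 7.85) in low stress and from 7.34 to 8.06 (median 7.66) in high stress (log2 difference -0.17, SE 0.15). Ssc.9365.3.S1_a_at ranged from 7.74 to 8.56 (median 8.17) and from 7.80 to 8.66 (median 8.16), a log2 difference of 0.06 (SE 0.15, 95% confidence interval -0.25 to 0.36). In both the groups covered nearly the same range.

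The remaining IGF2 probe sets varied more among the animals. Ssc.9365.2.S1_a_at ranged from 6.73 to 8.25 (median 7.30) in low stress and from 6.92 to 7.72 (median 7.21) in high stress; its difference was -0.46 among low-spike and 0.24 among high-spike arrays, and the interaction did not pass (limma adjusted p = 0.9996). Ssc.9365.5.S1_a_at ranged from 6.59 to 7.81 (median 7.10) and from 6.22 to 7.60 (median 6.86), a log2 difference of -0.24 (SE 0.24). Ssc.9365.3.S1_x_at ranged from 5.78 to 8.42 (median 8.19) and from 6.28 to 8.84 (median 8.06), a log2 difference of 0.27 (SE 0.39), with low stress replicates 8 and 4 and high stress replicate 7 far below the rest. Single animals set the size of that difference: it was 0.0025 without low stress replicate 8, 0.12 without low stress replicate 4 and 0.50 without high stress replicate 7. The suffix x marks probes that the array's maker lists as matching other sequences too. Centred in the same way, the 10 pairs of these 5 probe sets had correlations of -0.227 to 0.689 with a median of 0.279, and 8 were above 0. The other 8 probe sets of IGF2 were dim, with means of 2.72 to 5.99.

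**Figure D2:**
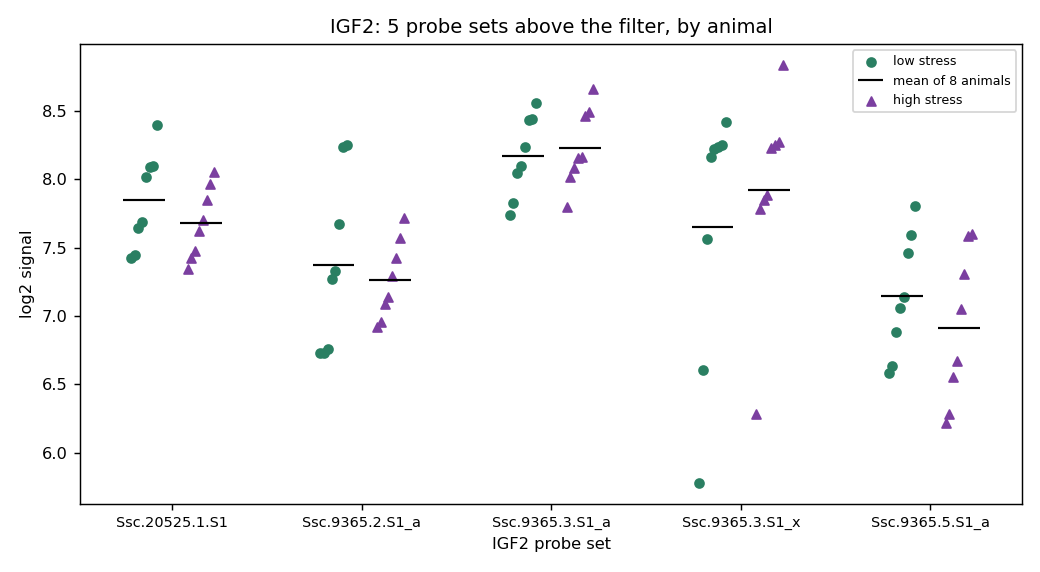
Log2 signal of the 5 IGF2 probe sets above the filter (x axis) in 8 low stress (circles) and 8 high stress (triangles) animals; lines are the group means. The groups overlap in each probe set, and the mean differences run from -0.24 to 0.27.

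IGF1, the ligand that growth hormone induces, was near or below the filter throughout. Its 1 probe set that passed, Ssc.16231.3.S1_a_at, ranged from 5.08 to 6.69 (median 6.32) in low stress and from 5.31 to 6.74 (median 6.27) in high stress. The log2 difference of -0.04 (SE 0.23, 95% confidence interval -0.53 to 0.45) had no settled sign, and was 0.0367 after quantile normalization and 0.0321 after median centring. The other 2 probe sets averaged 5.67 and 5.08 over all animals and had log2 differences of -0.29 (SE 0.20) and -0.37 (SE 0.46) without a filter. The groups overlapped in each of them.

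IGF1R, the signalling receptor, had 2 probe sets above the filter with differences of opposite sign. Ssc.16058.1.S1_at ranged from 6.12 to 7.50 (median 6.68) in low stress and from 6.56 to 7.34 (median 6.83) in high stress, a log2 difference of 0.21 (SE 0.17, 95% confidence interval -0.14 to 0.56). Ssc.19009.1.S1_at ranged from 7.17 to 7.73 (median 7.57) and from 6.92 to 7.67 (median 7.21), a log2 difference of -0.20 (SE 0.13, 95% confidence interval -0.47 to 0.07). Each kept its sign in both spike-in sets, at 0.22 and 0.19 for the former and at -0.08 and -0.31 for the latter. Neither passed (limma adjusted p = 0.999 each), so no direction can be given for the gene.

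IGF2R, which clears IGF2 and carries lysosomal enzymes, ranged from 5.56 to 7.11 (median 6.52) in low stress and from 5.15 to 6.75 (median 6.06) in high stress. The groups overlapped, and 6 of 8 high stress animals lay below the low stress mean. The log2 difference was -0.43 (SE 0.24, 95% confidence interval -0.94 to 0.08; limma adjusted p = 0.999), and it was -0.22 among the low-spike and -0.64 among the high-spike arrays. In high stress 4 of 8 animals and in low stress 1 of 8 lay under the filter value. The high stress mean (6.07) was also under it and the low stress mean (6.50) above it. IGF2R thus passed the filter through its low stress values. Unlike in the fits above, the unadjusted p of IGF2R in limma was under 0.05 in 5 alternatives. These were array weights (-0.57, limma adjusted p = 0.878), the high-spike set alone (-0.64, limma adjusted p = 0.999868), and leaving out low stress replicate 2 (-0.56), high stress replicate 1 (-0.53) or high stress replicate 3 (-0.52).

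Over the 13 probe sets, 8 had lower and 5 higher means in high stress, with a median log2 difference of -0.11; of all probe sets tested 58.4% were lower, with a median of -0.03. In 11 of the 13 the difference had the same sign in both spike-in sets. The share over all probe sets was not worked out and 5 of the 13 are of IGF2, so this count is a description. The 12 dim probe sets had log2 differences of -1.08 to 0.03 without a filter, and the smallest unadjusted p among them was 0.158.

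**Figure D3:**
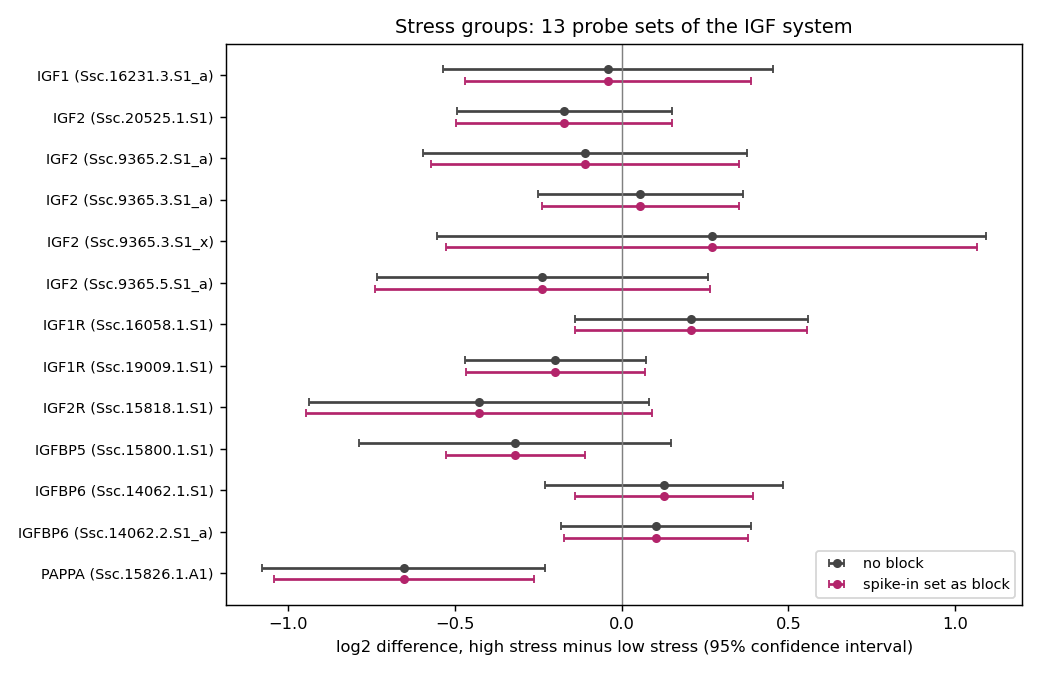
Log2 difference between high and low stress (x axis) for the 13 probe sets above the filter (y axis), with 95% confidence intervals from limma over 16 animals, without a block (grey) and with the spike-in set as a block (magenta). The interval leaves out 0 for PAPPA in both fits and for IGFBP5 with the block, and none passed after adjustment over 14399 probe sets.

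Between the spike-in sets 2 of the 13 probe sets differed (limma adjusted p under 0.05), IGFBP5 and the first of IGFBP6, both lower in the high-spike set, where 16.3% of all probe sets tested were lower and 23.7% higher. IGF1 came closest on the other side, at 0.51 (SE 0.20, adjusted p = 0.0547), and PAPPA had -0.35 (SE 0.18, adjusted p = 0.135). The ratio of 3' to 5' signal of the actin control, a sign of RNA length, was 3.14 ± 0.61 on low-spike and 2.01 ± 0.39 on high-spike arrays, and that of GAPDH was 1.37 ± 0.08 and 1.45 ± 0.09 (SD, n = 8 each). Smooth muscle markers moved the same way as IGFBP5 between the sets: 5 of 5 measured (of 6 listed) were lower in the high-spike set. Their summed signal ranged from 7874 to 19048 on low-spike and from 3667 to 11435 on high-spike arrays. Other lists also held markers that differed between the sets (limma adjusted p under 0.05). Of the cortex markers 3 did, 2 of them lower in the high-spike set. The medulla, endothelial, adipocyte and liver lists had 1 each, lower, and the fibroblast and blood lists 1 each, higher. The part of these in the IGFBP5 and IGFBP6 differences was not tested. The actin ratio also had a lower mean in high stress, as PAPPA and IGFBP5 did, at 2.39 ± 0.66 against 2.76 ± 0.86 in low stress (SD, n = 8 each). It was 2.96 against 3.33 among low-spike and 1.82 against 2.20 among high-spike arrays (high against low stress, n = 4 each), with overlapping ranges in both. Its part in the stress differences was not tested.

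**Figure D4:**
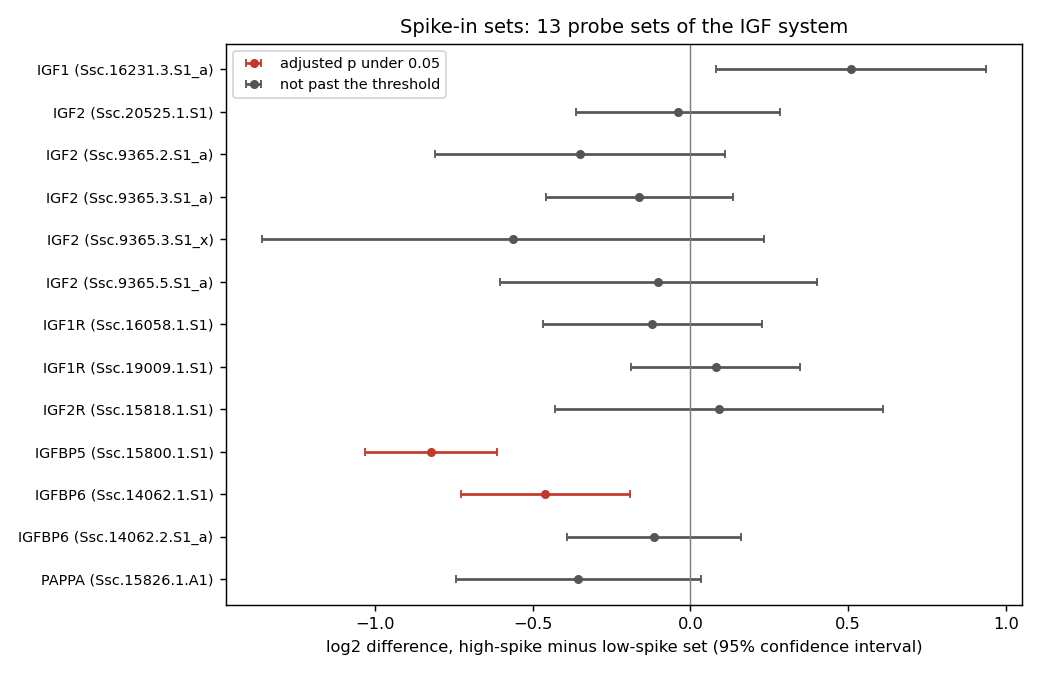
Log2 difference between the high-spike and the low-spike set (x axis) for the 13 probe sets (y axis), with 95% confidence intervals from limma and stress as a further term; red marks an adjusted p under 0.05. IGFBP5 (-0.82) and 1 probe set of IGFBP6 (-0.46) passed, and the other probe set of IGFBP6 (-0.12) did not.

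Markers of stromal cells, which are known to make IGF-binding proteins and PAPPA, were read in the same animals. Of 8 fibroblast and capsule markers 5 were measured, and 3 had lower means in high stress; their summed signal ranged from 3757 to 7490 in low stress and from 2955 to 5638 in high stress. Of 8 endothelial markers 7 were measured and 4 had lower means, with sums of 5345 to 7064 and 5586 to 6122. Smooth muscle markers had higher means in high stress in 5 of 5, with sums of 3667 to 18973 and 7031 to 19048. Their mean log2 difference was 0.05 among low-spike and 0.56 among high-spike arrays, so it lay mostly in the latter. All 4 measured adipocyte markers (of 5) had lower means in high stress, with sums of 1397 to 2129 and 1095 to 2170; the most specific of them, ADIPOQ, lay under the filter at 5.202 ± 0.62 in low stress and 3.25 ± 1.87 in high stress (SD, n = 8 each). The ranges overlapped in each list, and the part of these cells in the PAPPA and IGFBP5 values was not tested.

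The wider IGF system was read from a further list. Of its 65 genes, 33 had a probe set and 23 passed the filter. Of these, 12 were signalling genes and 7 were proteases of binding proteins or their inhibitors. None of the further receptors, binding proteins (IGFBP4 among them) or IGF mRNA-binding genes on the list passed the filter. Of the 23, 10 had lower and 13 higher means in high stress. Their median log2 difference was 0.02, where 58.4% of all probe sets tested were lower. In limma 0 passed, and at an unadjusted p under 0.05 there were 2 of 23, 1 lower and 1 higher, against 3.19% of all tested (1.92% lower). With the spike-in set as a block 0 passed. In that fit 1 lower and 2 higher had an unadjusted p under 0.05, against 6.38% of all tested. Among 7 proteases of binding proteins and their inhibitors 4 were lower. TIMP1, the inhibitor of matrix metalloproteases, had the smallest p on the high stress side: it ranged from 11.47 to 12.28 (median 11.74) in low stress and from 11.79 to 12.30 (median 11.99) in high stress, a log2 difference of 0.25 (SE 0.12, limma adjusted p = 0.999). MMP2, one of the metalloproteases, had -0.29 (SE 0.20). HTRA1, a secreted serine protease, had -0.04 (SE 0.12), and STC1, a stanniocalcin, of a family known to inhibit PAPPA, had -0.03 (SE 0.17); these last 2 were named after their values were seen.

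Downstream of the receptor 12 signalling genes passed the filter, 4 of them lower and 8 higher in high stress. TSC2, which restrains mTOR signalling, ranged from 7.53 to 8.26 (median 7.88) in low stress and from 7.09 to 8.03 (median 7.59) in high stress, a log2 difference of -0.28 (SE 0.13, limma adjusted p = 0.999). The adaptor SHC1 had -0.27 (SE 0.16) and the transcription factor FOXO1 -0.11 (SE 0.12). On the other side the adaptor GRB2 had 0.18 (SE 0.13), the phosphatase PTPN1 0.12 (SE 0.10) and the lysosomal protease CTSD, of the protease list, 0.15 (SE 0.13). The kinases AKT1 and AKT2, named after their values were seen, had 0.02 (SE 0.10) and -0.01 (SE 0.12). Upstream, the growth hormone signal transducers STAT5A and STAT5B, also named afterwards, had -0.06 (SE 0.14) and -0.04 (SE 0.09). Some genes named from the wider list also differed between the spike-in sets (limma adjusted p under 0.05). TIMP1 (-0.27), GRB2 (-0.42) and AKT1 (-0.23) were lower in the high-spike set, and STC1 (0.50) was higher.

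The genes whose pattern over animals was most like that of PAPPA and IGFBP5 were sought among the named probe sets above the filter, 7271 for each, by Pearson's correlation over 16 arrays after centring on the stress group within the set. With so many candidates high values occur by selection, so they are a description. For PAPPA the highest were LOC100621559 (0.917), CORO1A (0.912), SIRT5 (0.777), RAB2A (0.775) and the IGF2 probe set Ssc.9365.2.S1_a_at (0.771), and the lowest SOD2 (-0.895), PPP4R1L (-0.839) and PTRH2 (-0.771). LOC100621559 and CORO1A, an actin-binding protein of leukocytes, had like values in both sets, at 0.930 and 0.893 and at 0.958 and 0.810 in the low-spike and high-spike set, whereas IGF2 had 0.915 and 0.418. The genes were picked on the arrays of both sets together, so like values in the sets are no separate support. For IGFBP5 the highest were U2SURP (0.875), UBXN4 (0.835), RBM5 (0.828), LAMP2 (0.817) and BRD7 (0.814), and the lowest QPCT (-0.804), OTUD5 (-0.778) and CLK2 (-0.775). Without the centring, r over all arrays was 0.458 to 0.750 for the highest of PAPPA and -0.056 to 0.418 for those of IGFBP5. For the lowest it was -0.707 to 0.137 and -0.331 to 0.144. For several genes the likeness thus lay in the centred values alone. U2SURP, RBM5 and CLK2 are known in RNA splicing. None of these genes passed between the stress groups in limma (adjusted p = 0.999 each), and CORO1A, at 0.14 (SE 0.16), had a higher mean in high stress where PAPPA had a lower one.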

How the data were processed

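Per the submitters' processing notes, the deposited intensity values are MAS5 signals from Affymetrix Expression Console 1.1.1; no MAS5 version is named. The mean of each deposited column without its highest and lowest 2% was 500, a scaling of the whole array by the authors. Scanner files were not analysed here. After taking log2, 124 controls were set aside. The platform annotation gave 1 symbol for 10069 of 23999 probe sets; 9961 of these matched RefSeq by gene number, and 0 symbols changed.

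The stress groups were tested by lmFit and eBayes of limma 3.58.1 (R 4.3.3), two-sided, over all 16 arrays, and the code was tested on simulated data. The labels do not say whether animals shared a litter or pen, so p-values measure the spread between these animals. Sets were split at the largest gap in dap. The genes named are all members, the 4 of the wider list with the smallest p in each direction, and the 5 most and 3 least similar to PAPPA and to IGFBP5; HTRA1, STC1, AKT1, AKT2, STAT5A, STAT5B and the markers STAR, CYP11A1, PNMT and ADIPOQ were named outside this rule, after their values were seen. Members and lists were chosen with earlier results of these data known. Alternatives were no filter or one at the 60th percentile, quantile normalization, centring on the median, a pseudocount of 23.5, a trended robust prior, array weights, both kinds of block, a Y-linked covariate, each set alone, and leaving out each animal. Plots used matplotlib 3.10.9 (Python 3.11.15).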

Additional observations from a re-analysis of the deposited data

Results flagged for a closer look

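In 9 of the 50 groups of 8 animals (25 probe sets, 2 stress groups), 1 animal lay far from the other 7 by Dixon's ratio of gap to range. For normally spread and independent groups chance flags about 1 in 20. Many of the 50 groups are probe sets of the same gene in the same animals, so the 9 cannot be read as an excess. In 3 of the 9 flagged groups the probe set was above the filter. For IGF1 (Ssc.16231.3.S1_a_at) low stress replicate 2 lay at 5.08, with the others at 6.08 to 6.69. For IGF2 (Ssc.9365.3.S1_x_at) high stress replicate 7 lay at 6.28, with the others at 7.78 to 8.84; without it the log2 difference was 0.50 in place of 0.27. For IGF1R (Ssc.16058.1.S1_at) low stress replicate 2 lay at 7.50, with the others at 6.12 to 6.73; without it the log2 difference of IGF1R was 0.32.

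The other 6 concerned dim probe sets. In IGFBP2 high stress replicate 3 lay at 2.83, with the others at 5.63 to 6.77. In IGF2, low stress replicate 8 lay at 4.41 (Ssc.9365.5.A1_at) and at 3.58 (Ssc.9365.6.A1_x_at), high stress replicate 8 at 2.01 (Ssc.9365.6.A1_x_at), high stress replicate 6 at 3.93 (Ssc.9365.6.S1_x_at) and low stress replicate 3 at 1.98 (Ssc.9365.7.A1_x_at). No animal stood apart in this way in PAPPA, IGFBP5, IGFBP6 or IGF2R.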

How the results depend on the processing

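No member passed limma's threshold under any alternative tried. PAPPA stayed lower in high stress in all 14 alternatives that could be fitted, at -0.74 to -0.50 (adjusted p 0.619 to 0.999975), and at -0.75 to -0.57 when each animal was left out; it was too dim for the 60th percentile filter. IGFBP5 stayed lower in 15 alternatives, at -0.37 to -0.25 (adjusted p 0.652 to 0.999975), and at -0.41 to -0.23 with each animal left out. Over all probe sets 0 passed, and 1 with the set as a block, 1 with quantile normalization beside it and 2 with median centring beside it, the last 2 chosen after seeing the data. At an unadjusted p under 0.05 the 183 higher and 277 lower became 240 and 183 after quantile normalization and 318 and 126 after median centring; the median of all probe sets moved by 0.03 and 0.07. With array weights 786 passed that threshold and without a filter 906, against 460. Signs turned for IGF1 with quantile normalization (0.0367, with or without the block) and median centring (0.0321, likewise), for IGF2 Ssc.9365.2.S1_a_at in the high-spike set (0.24) and for IGF2 Ssc.9365.3.S1_a_at in the low-spike set (-0.0657); the cause was not tested. With animals left out these ranged from -0.209 to 0.0884, from -0.202 to 0.0156 and from -0.00575 to 0.118. The labels give no pairing of single animals, and their numbers are not shared between the groups. Within each spike-in set, each first digit of the animal number held 1 animal of each stress group. This layout was fitted with set and digit as blocks, and no paired analysis was run.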
